A study of Mus musculus with 7 samples.

Results

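The accessibility of chromatin around 4 genes of the TGF-beta pathway, Tgfbr2, Smad3, Smad6 and Smad7, was examined in haematopoietic stem cells of mice that carried either a control lentivirus or one expressing Runx3. The peaks were chosen by position: a peak of the deposited table belonged to a locus where its midpoint lay inside a fixed window of the mm9 build, on chromosome 9 from 115950000 to 116250000 for Tgfbr2, from 63470000 to 63650000 for Smad3 and from 63780000 to 63890000 for Smad6, and on chromosome 18 from 75490000 to 75580000 for Smad7. This gave 85 of 98723 peaks, 29 at Tgfbr2, 29 at Smad3, 13 at Smad6 and 14 at Smad7. The peaks themselves were defined from sequencing reads, so that these windows hold open chromatin is not a result, and the 4 genes were picked from earlier results of these data. Which exon, intron or intergenic stretch each peak lies in was not analysed here, since no annotation of the mm9 build was used, and for the same reason other genes of the pathway were not analysed here.

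Bone marrow of C57BL/6 donors aged 24 months was enriched for cKit-positive cells, infected with either vector and given to lethally irradiated recipients. Donor-derived cells that carried a vector were sorted 16 weeks later as stem cells, by the surface phenotype LSK, Flt3-, CD150+, CD48-, CD45.2+ and hCD2+, and profiled by Omni-ATAC-seq. That assay uses a transposase that inserts sequencing adapters where DNA is accessible, so read counts rise with accessibility. The 4 control libraries (numbers 1 to 4) and the 3 Runx3 libraries (numbers 1, 3 and 4) therefore share donor age, infection, transplantation and sort, and differ in the vector. The sources used here give neither the promoter that drives Runx3 nor the number of animals behind a library. The p-values therefore rest on library-to-library spread, part of which may be technical. The sorted phenotype could not be checked against marker genes without an annotation.

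TGF-beta is an extracellular ligand that is known to hold haematopoietic stem cells in quiescence. It binds Tgfbr2, the type II receptor, a kinase that activates the type I receptor. The activated receptor complex phosphorylates Smad3 and its relative Smad2, which join Smad4 and act in the nucleus as transcription factors. Smad6 and Smad7 are inhibitory Smads that damp the signal, Smad6 mainly that of bone morphogenetic proteins and Smad7 that of TGF-beta as well. RUNX proteins, Runx3 among them, are known partners of receptor-activated Smads on DNA.

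Promoters of Tgfbr2, the gene whose locus held the only called peak, and of Smad6, whose promoter held a SMAD element, are shown here. The sequences are RefSeq promoters of the GRCm38.p6 build, 300 bases on the minus strand of chromosome 9, written 5′ to 3′. Their places relative to the mm9 peaks were not worked out. Capitals mark a match to one of 4 motifs, searched on both strands.
Tgfbr2, chr9:116175314-116175613: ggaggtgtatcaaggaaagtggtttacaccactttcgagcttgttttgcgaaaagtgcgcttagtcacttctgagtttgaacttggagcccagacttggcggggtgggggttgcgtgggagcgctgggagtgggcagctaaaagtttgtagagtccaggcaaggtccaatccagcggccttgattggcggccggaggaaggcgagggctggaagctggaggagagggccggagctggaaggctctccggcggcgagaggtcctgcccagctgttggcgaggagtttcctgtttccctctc
Smad6, chr9:64022010-64022309: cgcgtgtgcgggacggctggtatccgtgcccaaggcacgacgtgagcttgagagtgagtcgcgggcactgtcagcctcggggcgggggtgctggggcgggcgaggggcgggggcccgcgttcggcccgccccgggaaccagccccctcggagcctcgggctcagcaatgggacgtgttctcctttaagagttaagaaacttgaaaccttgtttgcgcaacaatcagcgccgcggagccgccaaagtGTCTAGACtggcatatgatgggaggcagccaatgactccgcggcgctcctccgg
The motifs were TGTGGT and TGCGGT, cores bound by RUNX proteins, and GTCTAGAC and CAGACA, elements bound by Smads, and the 4 do not contain one another. The Smad6 promoter held the palindrome GTCTAGAC at bases 247 to 254 of the 300 shown, and 0.213% of 32851 RefSeq promoters of the same length hold it, while 21.2% hold at least 1 of the 2 SMAD elements searched. Neither RUNX core was in the Tgfbr2, Smad3 or Smad6 promoter, where 22.4% of all promoters hold at least 1 of them, and neither SMAD element was in the Tgfbr2 or Smad3 promoter. The GC content was 59.0% at Tgfbr2, 67.7% at Smad3 and 66.3% at Smad6, against a median of 52.7%. The Smad7 promoter was not searched. A match is a description of letters and says nothing of binding in these cells.

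Total counts in peaks ran from 1738164 to 3758422 per library, and the Runx3 libraries were shallower on average, with 2238860 counts against 3113950. Levels are given as CPM, read counts put on a common library total with TMM scaling factors. Levels with ± are means and SD over the 4 control or 3 Runx3 libraries. A filter on low counts kept 57504 peaks for testing and 58 of the 85 members, 14 at Tgfbr2, 21 at Smad3, 11 at Smad6 and 12 at Smad7. A peak is called where the adjusted p of edgeR's quasi-likelihood test is under 0.05. In control 1, control 2 and Runx3 1, here set 1, 57 peaks were at least 8-fold higher, with 0.5 CPM added, than in each of the other 4 libraries, here set 2, and 0 of these are members. The sample labels give no batch, so the sets rest on no label. Values within each set are given where a result turns on them.

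Few peaks of the 4 loci differed between the vectors. With Runx3, 1 of the 58 tested members was called higher, where 0.0330% of all tested peaks were, and 0 were called lower in edgeR, where 0.0400% were. At an unadjusted p under 0.05, 4 members were higher (6.90%, against 3.91% of all tested peaks) and 2 were lower (3.45%, against 4.40%), and DESeq2 and limma-voom called 0 members in either direction with 4 and 7 at that level. The 3 Runx3 libraries lay above all 4 controls in 3 members (5.17%, against 4.36% of all tested peaks) and below all 4 in 3 members (5.17%, against 4.58%). The median log2 fold change of the members was -0.05 and that of all tested peaks -0.01. A log2 fold change smaller than 0.5 in size was measured in 50 members (86.2%, against 87.0% of all tested peaks). Since 4 members passed the filter through all 3 Runx3 libraries and fewer than 3 controls, and 9 through at least 3 controls and fewer than 3 Runx3 libraries, these counts describe the members and support nothing further.

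**Figure D1:**
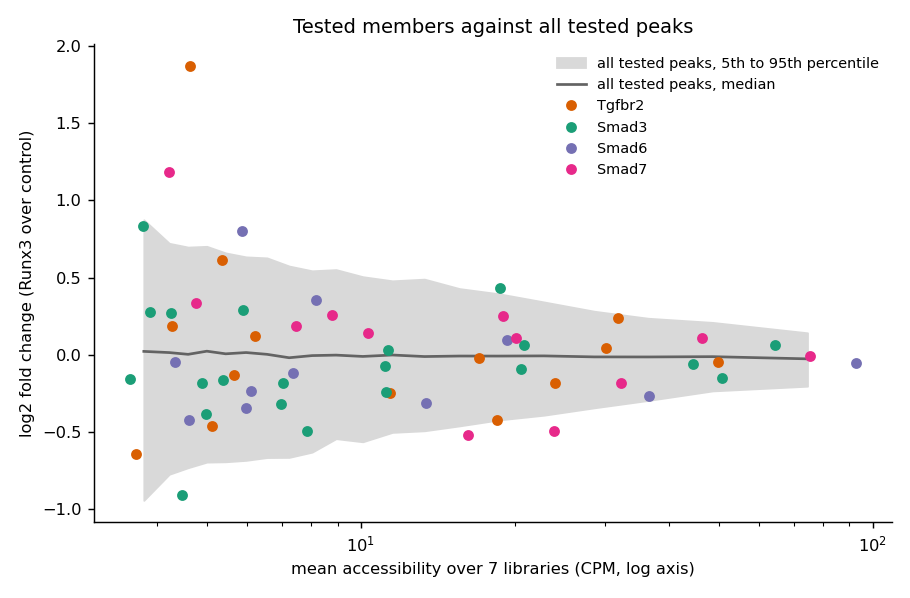
Log2 fold change (Runx3 over control) of the 58 tested members against their mean accessibility in CPM (log axis), 1 point per peak, coloured by locus. The grey band spans the 5th to the 95th percentile and the line the median of all 57504 tested peaks at that level; the point farthest above the band is the called Tgfbr2 peak at 1.87.

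Summed over all member peaks, the Runx3 to control ratio was 1.04 at Tgfbr2, 0.977 at Smad3, 0.959 at Smad6 and 1.002 at Smad7, and the groups overlapped at every locus. At Tgfbr2 the sum was 240.1, 262.5, 254.7 and 241.2 CPM in controls 1 to 4, with a mean of 249.6 ± 10.8 (SD, n = 4), and 273.2, 237.4 and 268.2 CPM in Runx3 1, 3 and 4, with a mean of 259.6 ± 19.4 (SD, n = 3). Runx3 1 and Runx3 4 were above every control and Runx3 3 was below every control. The Smad3 sum was 340.1 ± 5.90 CPM in controls and 332.2 ± 12.2 with Runx3, where Runx3 1, at 318.2, was the lowest library. At Smad6 the sums were 212.3 ± 9.46 and 203.6 ± 14.5 CPM, with Runx3 4 lowest at 188.4. The inhibitor Smad7 had 272.8 ± 13.0 and 273.3 ± 17.8 CPM. As log2 ratios these differences were 0.06, -0.03, -0.06 and 0.0023 in the same order, each smaller than the pooled SD of its locus's log2 sums, which ran from 0.04 at Smad3 to 0.08 at the other 3 loci. Sums over members chosen with earlier results known were given no test.

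**Figure D2:**
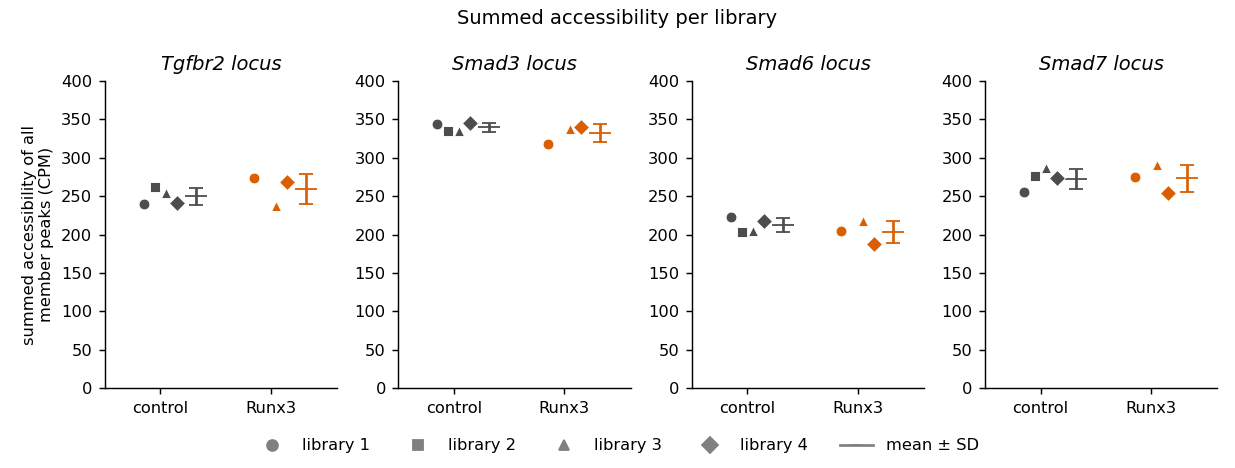
Summed accessibility in CPM of all member peaks of each locus (y axis), with 1 point per library, the symbol giving its number, and the mean ± SD beside each group (control n = 4, Runx3 n = 3). Points of both groups overlap at all 4 loci.

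A few peaks carried a large part of the signal at each locus. The 3 most accessible peaks held 44.0% of the summed CPM at Tgfbr2, 47.4% at Smad3, 71.3% at Smad6 and 56.4% at Smad7. Smad6 and Smad7 have fewer members, 13 and 14 against 29 at each other locus, so 3 peaks are a larger part of them. Per kb of peak, the mean level was 16.0 CPM at Tgfbr2, 23.7 at Smad3, 29.2 at Smad7 and 31.6 at Smad6. Peaks were densest at Smad3, with 16.1 per 100 kb of window, and sparsest at Tgfbr2, with 9.67. Of the 58 tested members, 7 (12.1%) were among the most accessible 10% of tested peaks. They were 3 at Smad3, 2 at Smad7 and 1 at each of the other loci. At Tgfbr2 22 of 29 members were below the median level of tested peaks, at Smad3 20 of 29, at Smad6 9 of 13 and at Smad7 6 of 14. These counts include the members that the low-count filter left out, 15, 8, 2 and 2 in that order. The filter itself puts those below that median, so the counts do not set the loci apart from other peaks. At the 8 window edges the first peak inside had between 2.03 and 29.71 CPM in controls and the first peak outside between 1.40 and 16.2 CPM, and the closest of those outside lay 1.12 kb from the end of the Smad3 window, at 9.62 CPM in controls and 14.5 CPM with Runx3.

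**Figure D3:**
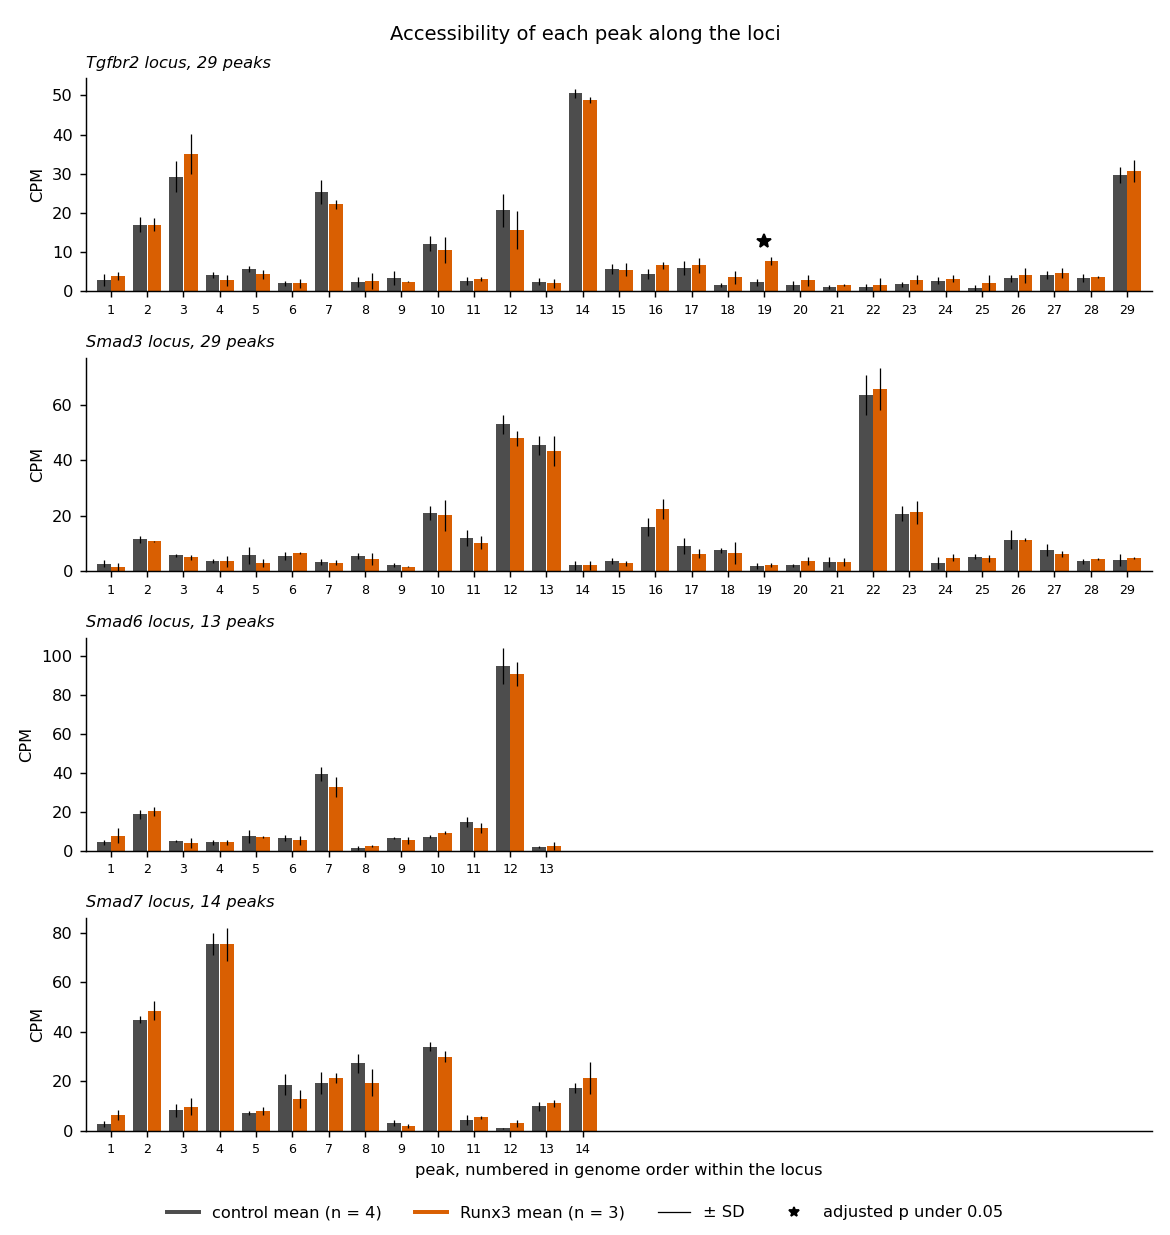
Mean accessibility in CPM of each of the 85 member peaks, numbered in genome order within its locus, in control (grey, n = 4) and Runx3 libraries (orange, n = 3), with bars for the SD. The star marks the called peak, number 19 at Tgfbr2, which is low beside the main peak of that locus at 50.6 CPM in controls.

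At the receptor gene Tgfbr2, 1 peak rose with Runx3, and the 95% intervals of the 3 strongest peaks included no change. The peak on chromosome 9 at 116132515 to 116132858 (mm9) is 343 bases wide. The Runx3 libraries are shallower on average, although Runx3 3 and Runx3 4 are deeper than control 1. The peak held 7, 5, 6 and 6 reads in controls 1 to 4 and 11, 21 and 17 in Runx3 1, 3 and 4. As CPM these are 3.61, 1.95, 1.75 and 1.73 in controls, a mean of 2.26 ± 0.910 (SD, n = 4), and 6.86, 8.85 and 7.72 with Runx3, a mean of 7.81 ± 0.999 (SD, n = 3). Every Runx3 library was above every control, and control 1 was the highest control. The log2 fold change was 1.87 ± 0.38 (SE), or 3.66-fold with a 95% interval of 2.15 to 6.24 (edgeR adjusted p = 0.0321), and the peak ranked 27 among 57504 by p. Its share rose from 0.912% ± 0.396 to 3.04% ± 0.625 of the summed CPM of its locus. In sorted bulk cells, more cells with the site open and a more open site per cell cannot be told apart.

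This call rests on few reads and on settings. No control library reached the filter's level at this peak, so it was tested only because of the Runx3 libraries, and fitted with no filter it was again called (edgeR adjusted p = 0.0258). The log2 fold change was 1.32 within set 1 and 2.23 within set 2, the same direction at different sizes, while the adjusted p was 0.453 in DESeq2, 0.122 in limma-voom, 0.0645 in edgeR without robust estimation and 0.172 in edgeR with library depth as a term (log2 fold change 1.69). Leaving out 1 library gave an edgeR adjusted p of 0.00312 without control 1, 0.108 without control 2, 0.142 without control 3, 0.0593 without control 4, 0.144 without Runx3 1, 0.223 without Runx3 3 and 0.357 without Runx3 4, so the call was kept only without control 1. It was also kept with the library set as a term (edgeR adjusted p = 0.0307) and in set 2 alone (0.0336), and not in set 1 alone (0.998), which has a single Runx3 library.

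The neighbours of the called peak were weak. The member 1131 bases before it, at 116131099 to 116131384, held 3, 4, 8 and 4 reads in controls and 5, 13 and 5 with Runx3, or 1.65 ± 0.493 and 3.62 ± 1.66 CPM, and was too low to be tested. Here the groups overlapped by 1 library of each. At 116125616 to 116126110, control levels were 4.38 ± 1.22 CPM and Runx3 levels 6.62 ± 0.965 CPM, without overlap of the groups. The log2 fold change there was 0.62 ± 0.34 (SE, edgeR adjusted p = 0.659). The peak at 116127856 to 116128353 lay between them in position and had a log2 fold change of 0.12 ± 0.32 (SE). On the other side the next member began 19992 bases away, at 116152850, and had 1.47 ± 1.16 and 2.76 ± 1.43 CPM.

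**Figure D4:**
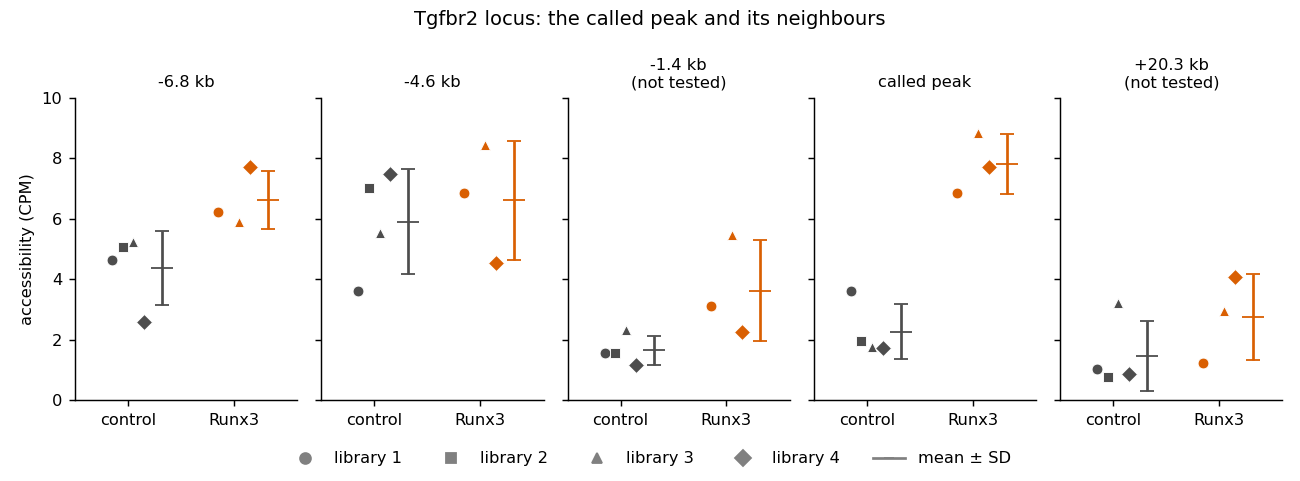
Accessibility in CPM (y axis) of the called Tgfbr2 peak and the 4 members nearest to it in genome order, titled by distance of their centres from it in kb, with 1 point per library, the symbol giving its number, and the mean ± SD beside each group. In the called peak the Runx3 libraries sit between 6.86 and 8.85 CPM and the controls between 1.73 and 3.61, while neighbours other than that at -6.8 kb overlap.

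The main peak of the Tgfbr2 locus, at 116083513 to 116085229, is the widest there, with 1716 bases. Its level was 52.1, 50.6, 49.5 and 50.03 CPM in controls 1 to 4 and 48.0, 48.9 and 49.5 CPM in Runx3 1, 3 and 4. The Runx3 libraries were below all controls, but by little: the log2 fold change was -0.05 ± 0.12 (SE, edgeR adjusted p = 0.966), and the 95% interval of the ratio was 0.81 to 1.15. The second peak, at 115993103 to 115994188, was at 29.3 ± 4.05 CPM in controls and at 35.1 ± 5.08 CPM with Runx3. Control 1, at 23.2 CPM, was low among the controls, and the log2 fold change was 0.24 ± 0.16 (SE, edgeR adjusted p = 0.741). The third, at 116247161 to 116247923, had 29.71 ± 1.98 and 30.7 ± 2.88 CPM. Of the 14 tested members of this locus, 6 had a log2 fold change above 0 and 8 below, with a median of -0.03.

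At Smad3, the transcription factor that receives the receptor's signal, no member was called in edgeR, and 1 of 21 (4.76%) had an unadjusted p under 0.05, against 8.31% of all tested peaks. The locus has 3 strong peaks. The strongest, at 63605590 to 63606450, was at 71.3, 62.7, 53.8 and 65.8 CPM in controls 1 to 4 and at 62.4, 74.2 and 60.4 CPM in Runx3 1, 3 and 4. The groups overlapped, although Runx3 3 was above every control and control 3 below every Runx3 library, and the log2 fold change was 0.06 ± 0.12 (SE, edgeR adjusted p = 0.948, 95% interval of the ratio 0.88 to 1.24). The peak at 63568513 to 63569895, the widest of the locus with 1382 bases, was at 53.0 ± 3.41 CPM in controls and at 47.9 ± 2.69 CPM with Runx3, where the log2 fold change was -0.15 ± 0.13 (SE, edgeR adjusted p = 0.824). At 63574129 to 63574868 the levels were 45.4 ± 3.45 and 43.3 ± 5.56 CPM. Over the 3 peaks the 95% intervals of the ratio ran from 0.76 to 1.24.

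The Smad3 member with an unadjusted p under 0.05 lies at 63585141 to 63585763. It was at 11.9, 14.8, 18.6 and 18.7 CPM in controls and at 24.3, 18.1 and 24.5 CPM in Runx3 1, 3 and 4. Runx3 1 and Runx3 4 were above all controls and Runx3 3 lay among them. Its log2 fold change, 0.43 ± 0.19 (SE), was not called (edgeR adjusted p = 0.537). It was 0.84 within set 1 and 0.18 within set 2. A second member begins 62 bases further on, at 63585825 to 63586198, and had a log2 fold change of the other sign, -0.49 ± 0.30 (SE). The ratio of reads of the first to the second, which needs no scaling between libraries, was 1.21, 2.38, 1.45 and 2.60 in controls 1 to 4 and 5.57, 2.53 and 3.38 in Runx3 1, 3 and 4. Only control 4 and Runx3 3 overlapped, and this pair was singled out after its values were seen and was not tested. Over the 21 tested members 8 log2 fold changes were above 0 and 13 below, with a range from -0.91 to 0.84. Both ends of that range were weak peaks, at 63530200, with 5.66 ± 3.16 and 2.90 ± 1.32 CPM, and at 63622653, with 2.94 ± 2.25 and 4.84 ± 1.14 CPM.

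At the inhibitor Smad6, the locus was dominated by 1 peak. That peak, at 63869653 to 63871135, is 1482 bases wide, was the most accessible of all 85 members and lay above 98.8% of tested peaks. It was at 107.9, 92.7, 87.0 and 90.6 CPM in controls 1 to 4 and at 86.7, 97.4 and 87.1 CPM in Runx3 1, 3 and 4, so the groups overlapped and control 1 was highest. Its share of the summed CPM of the locus was 44.5% ± 3.16 in controls and 44.5% ± 2.04 with Runx3, and the log2 fold change was -0.05 ± 0.11 (SE, edgeR adjusted p = 0.956, 95% interval of the ratio 0.82 to 1.13). The second peak, at 63822224 to 63822875, was at 39.3 ± 3.46 CPM in controls and at 32.9 ± 5.05 CPM with Runx3. Its log2 fold change was -0.27 ± 0.15 (SE, edgeR adjusted p = 0.656), with -0.02 within set 1 and -0.40 within set 2. The third, at 63803682 to 63804233, had 18.7 ± 2.39 and 20.2 ± 2.10 CPM.

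No Smad6 member was called in edgeR, and 1 of 11 (9.09%) had an unadjusted p under 0.05, against 8.31% of all tested peaks. This weak peak, at 63789558 to 63790264, was at 4.13, 2.73, 4.95 and 5.75 CPM in controls and at 7.49, 11.8 and 4.08 CPM in Runx3 1, 3 and 4. Runx3 1 and Runx3 3 were above all controls, and Runx3 4 was lower than all controls but control 2. The log2 fold change was 0.80 ± 0.34 (SE, edgeR adjusted p = 0.496). Of the 11 tested members, 3 log2 fold changes were above 0 and 8 below, with a median of -0.12.

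At Smad7, the inhibitor of the TGF-beta receptor itself, 3 of 12 tested members (25%) had an unadjusted p under 0.05, against 8.31% of all tested peaks, and 0 were called in edgeR. The main peak, on chromosome 18 at 75526088 to 75527569 and 1481 bases wide, was at 73.3, 72.8, 82.1 and 73.9 CPM in controls 1 to 4 and at 75.5, 81.8 and 68.5 CPM in Runx3 1, 3 and 4. The groups overlapped, with Runx3 4 below every control and control 3 above every Runx3 library, and the log2 fold change was -0.01 ± 0.12 (SE, edgeR adjusted p = 0.996, 95% interval of the ratio 0.85 to 1.17). The second peak, at 75501779 to 75503194, was at 44.9 ± 1.52 CPM in controls and at 48.5 ± 3.85 CPM with Runx3. The third, at 75551815 to 75552715, was at 32.01, 34.7, 33.2 and 35.9 CPM in controls and at 27.4, 30.4 and 31.8 CPM with Runx3. There all Runx3 libraries were below all controls, and the log2 fold change was -0.18 ± 0.15 (SE, edgeR adjusted p = 0.815).

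Neighbouring Smad7 peaks had log2 fold changes of both signs. The peak at 75547018 to 75547612 was at 24.3, 27.7, 32.6 and 24.4 CPM in controls and at 18.1, 25.3 and 14.5 CPM in Runx3 1, 3 and 4. Runx3 1 and Runx3 4 were below all controls and Runx3 3 was among them. Its log2 fold change was -0.49 ± 0.19 (SE, edgeR adjusted p = 0.403), with -0.53 within set 1 and -0.51 within set 2. At 75536956 to 75537804, levels of 18.6 ± 4.20 CPM in controls and 12.9 ± 3.56 CPM with Runx3 gave a log2 ratio of -0.52 ± 0.22 (SE, edgeR adjusted p = 0.486). The next member begins 71 bases further on, at 75537875 to 75538733, and had 0.11 ± 0.19 (SE). Reads of the first over the second gave 1, 1.27, 0.690 and 1 in controls 1 to 4 and 0.543, 0.741 and 0.524 in Runx3 1, 3 and 4, so only control 3 and Runx3 3 overlapped. This pair too was singled out after its values were seen, and its difference was not tested.

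The Smad7 member with the smallest p, at 75491579 to 75492172, held 8, 4, 8 and 10 reads in controls and 13, 10 and 14 with Runx3. As CPM these were 4.13, 1.56, 2.33 and 2.88 against 8.11, 4.22 and 6.35, and all Runx3 libraries were above all controls, with control 1 and Runx3 3 nearly level. The log2 fold change was 1.18 ± 0.41 (SE) and did not pass (edgeR adjusted p = 0.338). As at the called Tgfbr2 peak, no control library reached the filter's level here, so the peak was tested only through the Runx3 libraries. An untested Smad7 member at 75564245 to 75564454 held 2, 3, 3 and 3 reads in controls and 2, 8 and 9 with Runx3, at the level where 3 reads stand for between 0.863 and 1.87 CPM.

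**Figure D5:**
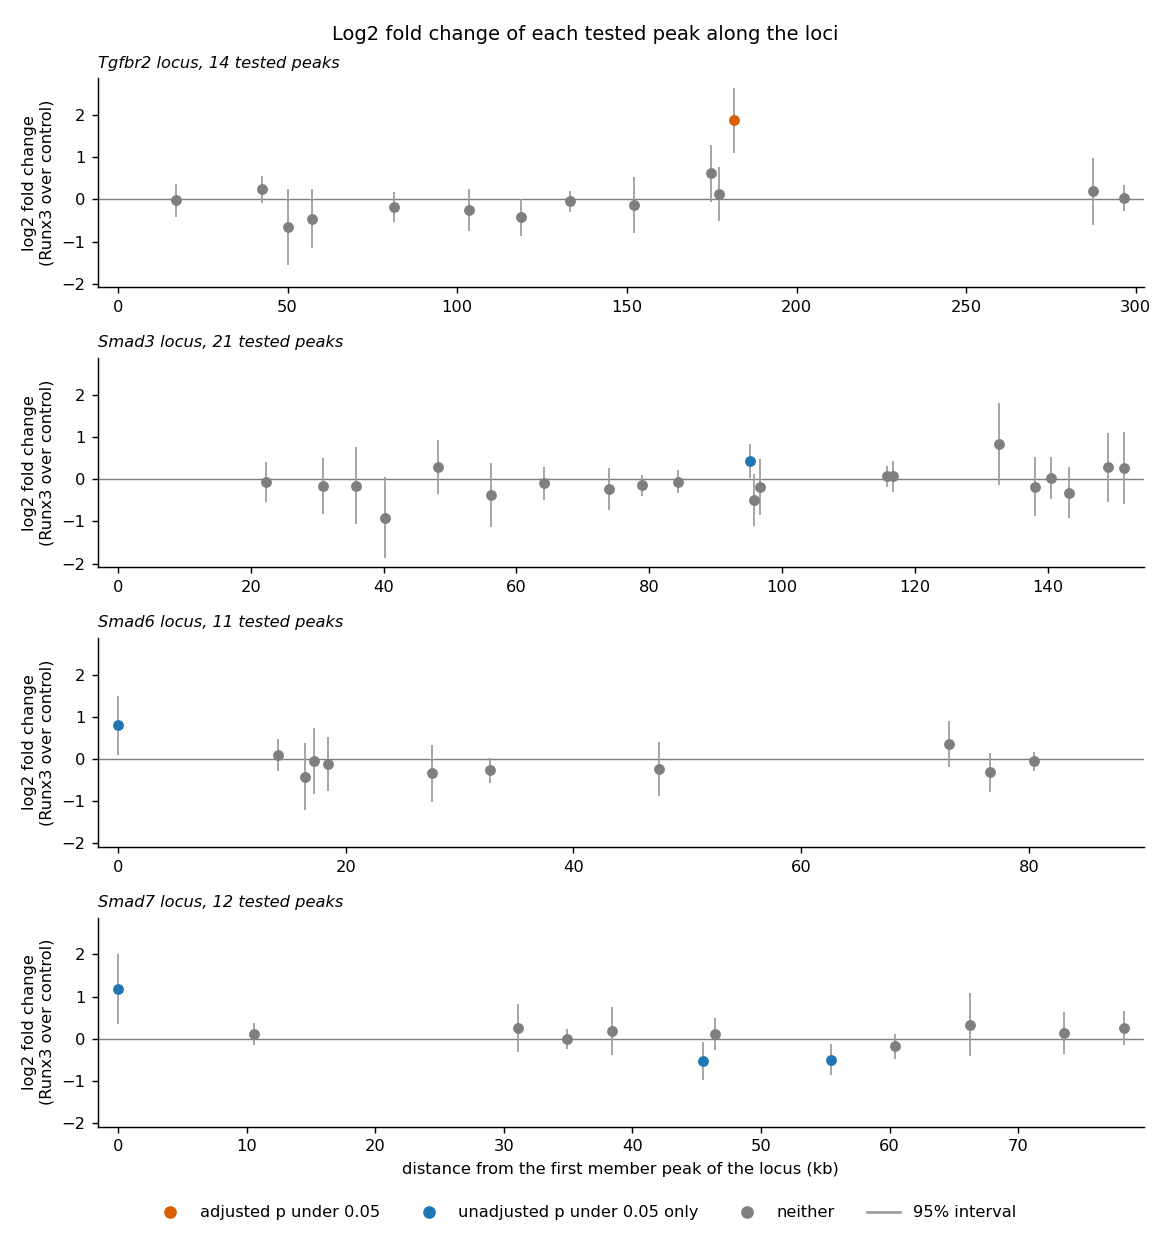
Log2 fold change (Runx3 over control) of the 58 tested members with its 95% interval, against distance in kb from the first member peak of each locus. The called Tgfbr2 peak (orange) is the only one with an adjusted p under 0.05; the 5 blue points, 1 at Smad3, 1 at Smad6 and 3 at Smad7, have an unadjusted p under 0.05 only.

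Precision differed between the members. The SE of the log2 fold change ran from 0.11 at the strongest members to 0.48 at the weakest, with a median of 0.27, and in 42 of the 58 tested members the 95% interval left out a 2-fold change in either direction. In the other 16 the interval reached or passed a 2-fold change. The 6 members with an unadjusted p under 0.05 had means between 4.22 and 23.8 CPM, and none of the 11 members in the most accessible class of 5 equal classes of tested peaks was among them, where 4.99% of all peaks of that class were.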

How the data were processed

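Omni-ATAC-seq reads of 7 libraries (4 control, 3 Runx3) were counted per peak by the authors, and the deposited table holds raw counts, whole numbers without normalization, for 98723 peaks. Per the submitters' processing notes the tools were Bowtie2, MACS2, Picard, SAMtools, FastQC and Trim Galore, and the build mm9. The sources used here do not state their versions, roles or order, how 1 peak set was formed for all libraries, or whether reads were shifted for the transposase. Starts may be off by 1 base, since the table does not say where counting begins, and widths are end minus start.

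Groups came from sample titles. Counts were tested with edgeR 4.0.16 (R 4.3.3) in all 7 libraries, by vector alone. The edgeR function filterByExpr, at 10 counts and a total of 15, retained 57504 peaks with 91.6% of counts. TMM factors and the robust quasi-likelihood test were used, with Benjamini-Hochberg adjustment over all tested peaks. SE is the log2 fold change over the square root of F, and intervals are approximate 95% intervals from it. CPM uses the tested peaks' totals with TMM factors. Values are means ± SD. The script was tested on simulated counts. Counts carry no molecular identifiers. Intervals come from the fitted model and include its estimate of the spread between libraries, while floors of 3 counts cover counting error only. Libraries of a group differed from each other by more than sampling noise, with a chi-square over degrees of freedom of 1.21 to 2.61. The pairs that include control 1 were at 1.91 to 2.61, and all other pairs at 1.21 to 1.48.

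Members, lists and tests were chosen with earlier results of these data known. Named peaks were, per locus, the 3 with the highest mean CPM, the widest, and those with an adjusted p or an unadjusted p under 0.05 (at most 8). Others named in the text were chosen after their values were seen. Alternatives covered scaling, filters, robust estimation, DESeq2 1.42.0, limma-voom (limma 3.58.1), depth, library sets, a block for the library number and each library left out in turn.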

Additional observations from a re-analysis of the deposited data

Results flagged for a closer look

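In 3 of 22 sets of 4 control values (the locus sums and the named peaks), 1 control stood far from the other 3, where chance gives about 1.1. At the called Tgfbr2 peak, at 116132515, control 1 was at 3.61 CPM, above the other controls at 1.73 to 1.95 CPM and nearest to the Runx3 libraries. In reads this was 7 in control 1 against 5, 6 and 6 in controls 2 to 4, and control 1 is the shallowest control. At the second Tgfbr2 peak, at 115993103, control 1 was at 23.2 CPM, below the others at 30.9 to 31.9 CPM. At the main Smad7 peak, at 75526088, control 3 was at 82.1 CPM, above the others at 72.8 to 73.9 CPM.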

How the results depend on the processing

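The count of 1 member called higher was the same with median-ratio factors, with library sizes only, with no low-count filter, at an adjusted p under 0.10, with the library set as a term and in set 2 alone. It was 0 with DESeq2, limma-voom, no robust estimation, library depth as a term and set 1 alone, where 4, 7, 6, 6 and 1 members had an unadjusted p under 0.05, and 0 with a mean count of at least 20 (3 members), where the called peak was not tested. Over all peaks those settings called 2, 5, 8, 33, 9 and 6 peaks higher in the same order. Leaving out 1 library gave from 0 to 1 members, and without Runx3 1 or control 2 no peak of the table was called (4475 and 3739 at an unadjusted p under 0.05 in edgeR). Without control 1, edgeR called 73 peaks of the table higher and 194 lower, against 19 and 23 with all 7 libraries. The count of 0 called lower (edgeR, 2 at an unadjusted p under 0.05) was 0 in every alternative run.

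With the replicate number as a block 0 members were called (5 at an unadjusted p under 0.05), and the called Tgfbr2 peak had a log2 fold change of 1.83 (edgeR adjusted p = 0.0504). Over all peaks this block called 30 higher and 71 lower in edgeR, against 19 and 23 without it. Deviations from the group means correlated at 0.117, 0.099 and 0.066 for numbers 1, 3 and 4. Each Runx3 library correlated best with the control of its number. The labels do not say that equal numbers are pairs, and the main fit does not take them as pairs.

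The log2 ratios of the locus sums moved by less than their SD in 55 of 56 alternatives, and by more at Smad3 in set 1 alone (-0.0944). Strong peaks with a log2 fold change near 0 changed sign. The Smad7 peak at 75526088 gave 0.0051 with library sizes only, 0.0396 in set 1 and 0.0468 with the depth term, and -0.0772 to 0.0621 when 1 library was left out. The Smad3 peak at 63574129 gave 0.0938 with the depth term and -0.155 to 0.0232 with 1 library left out, and that at 63605590 gave -0.106 in set 1 and -0.0411 to 0.127. The Smad6 peak at 63869653 gave 0.0552 in set 2 and -0.115 to 0.0145, and the Tgfbr2 peak at 116247161 gave -0.0317 to 0.113. The cause was not tested. Depth limits the weak members, where 3 reads stand for 0.863 to 1.87 CPM.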

Other observations

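The 27 members that the low-count filter left out were looked at after the results above were known, without a test. They held at most 18 reads in any library. At Tgfbr2, 13 of 15 had a higher mean CPM with Runx3 than in controls, against 52.8% of all 41219 untested peaks of the table. Summed, these 15 weak peaks had 32.5, 32.7, 36.1 and 29.6 CPM in controls 1 to 4 and 44.3, 35.8 and 44.9 CPM in Runx3 1, 3 and 4. Runx3 1 and Runx3 4 were above all controls, and Runx3 3 was just below control 3. The ratio of the group means was 1.27, where that of all untested peaks was 1.03. At Smad3, 4 of 8 untested members had a higher mean with Runx3, and their summed levels were 20.7 ± 2.06 CPM in controls (SD, n = 4) and 20.02 ± 2.85 CPM with Runx3 (SD, n = 3). The few untested members of the other loci had ratios of 1.47 at Smad6 (2 of 2 higher) and 1.21 at Smad7 (1 of 2 higher), and all 27 together had a ratio of 1.18 with 20 higher. Whether the weak Tgfbr2 peaks differ from those of other loci was not tested.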
